A study of Mus musculus with 6 samples.

Results

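The insulin and insulin-like growth factor (IGF) receptors, with a ligand, the docking and adaptor proteins that bind the activated receptors, and binding proteins of the IGFs, were read across the hearts of GRK2+/- and wild-type mice. The set was 10 named genes: Igf1, Igf1r, Insr, Igf2r, Irs1, Irs2, Grb10, Grb14, Igfbp3 and Igfbp5. Every probe set that the platform annotation assigned to exactly 1 of these symbols was taken, which gave 25 of the 45037 probe sets tested, with 1 to 5 per gene. A further probe set listed for both Airn and Igf2r was left out.

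GRK2+/- mice carry 1 targeted allele of Grk2 (Adrbk1), a kinase that phosphorylates activated G protein-coupled receptors, the beta-adrenergic ones among them, and so desensitises them, on the line B6.129-Adrbk1tm1Mca/J repeatedly backcrossed to C57BL/6J. They were compared with wild-type C57BL/6J littermates, with 3 hearts per genotype, all from animals 9 months old with no treatment named. The allele is present in every cell type of the body, so the comparison is of whole animals and not of cardiomyocytes alone. Total RNA came from the excised upper part of each heart, a mixed tissue, and was hybridised to 1 Affymetrix array per heart. The comparison asked whether a lower Grk2 dose, which has been studied in relation to insulin sensitivity, is accompanied by other levels of the transcripts through which insulin and IGF-1 signal.

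Insulin and IGF-1 bind the related receptor tyrosine kinases Insr and Igf1r, which on activation phosphorylate the docking proteins Irs1 and Irs2, and these recruit PI3-kinase. Grb10 and Grb14 bind the activated receptors and restrain them. Igf2r carries IGF-2 and mannose 6-phosphate-tagged enzymes to lysosomes and does not signal through a kinase, and the IGF-binding proteins hold IGFs in the circulation and in the tissue. In the heart this system supports glucose uptake, protein synthesis, growth and survival of cardiomyocytes, and IGF-1 is made locally as well as in the liver.

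The deposited values are log2 probe brightness after RMA, so a difference of 1 is a doubling, and brightness differs between probe sets for reasons other than transcript amount. Brightest here names the probe set with the highest mean value of its gene, the one kept where a gene has 1 value, and ranks no transcript against another. Array medians lay between 6.25 and 6.31, and correlations between arrays between 0.994 and 0.997. No probe set was named Grk2, so the targeted gene could not check the labels. The sex of the animals was not in the labels used here, and the Y-linked gene Eif2s3y lay between 8.67 and 9.11 in all 6 hearts. The cardiomyocyte markers had mean log2 values of 14.0 to 14.2, near the top of the scale.

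Of the 25 probe sets, 0 passed an adjusted p of 0.05 (limma, Benjamini-Hochberg over all 45037 probe sets; 0% of all probe sets passed, and the smallest adjusted p among the 25 was 0.143). At an unadjusted p under 0.05 there were 7 of the 25 (28%), against 12.8% of all probe sets, and all 7 were higher in GRK2+/- hearts, against 5.44% of all probe sets in that direction. On the lower side there were 0 of the 25 and 7.4% of all probe sets. When array medians were made equal, 7.51% of all probe sets were on the higher side at that p and 4.84% on the lower, and the members' count was again 7 and 0. The 3 GRK2+/- values lay wholly above the 3 wild-type values in 6 of the 25 (6.76% of all probe sets) and wholly below in 1 (11.2%), so 7 of 25 did not overlap, against 17.9% of all probe sets. The 7 probe sets belong to 4 genes, Igf1, Igf1r, Insr and Irs1, and probe sets of 1 gene are not independent. With 1 probe set a gene, the one with the highest mean, 4 of the 10 genes had an unadjusted p under 0.05, against 14% of 18193 genes, and all 4 were on the higher side (6.3% of genes, or 8.5% with equal array medians), with 0 on the lower side (7.7%, or 4.89%). The 10 genes and the lists used below were chosen with earlier results of these data known. Such shares are therefore description and no test of a set. With so few hearts the smallest two-sided p of an exact permutation test is 0.1. The labels do not tie single hearts to litters. The limma p-values rest on the spread between these 6 hearts, which limma draws toward a value common to all probe sets or genes.

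**Figure D1:**
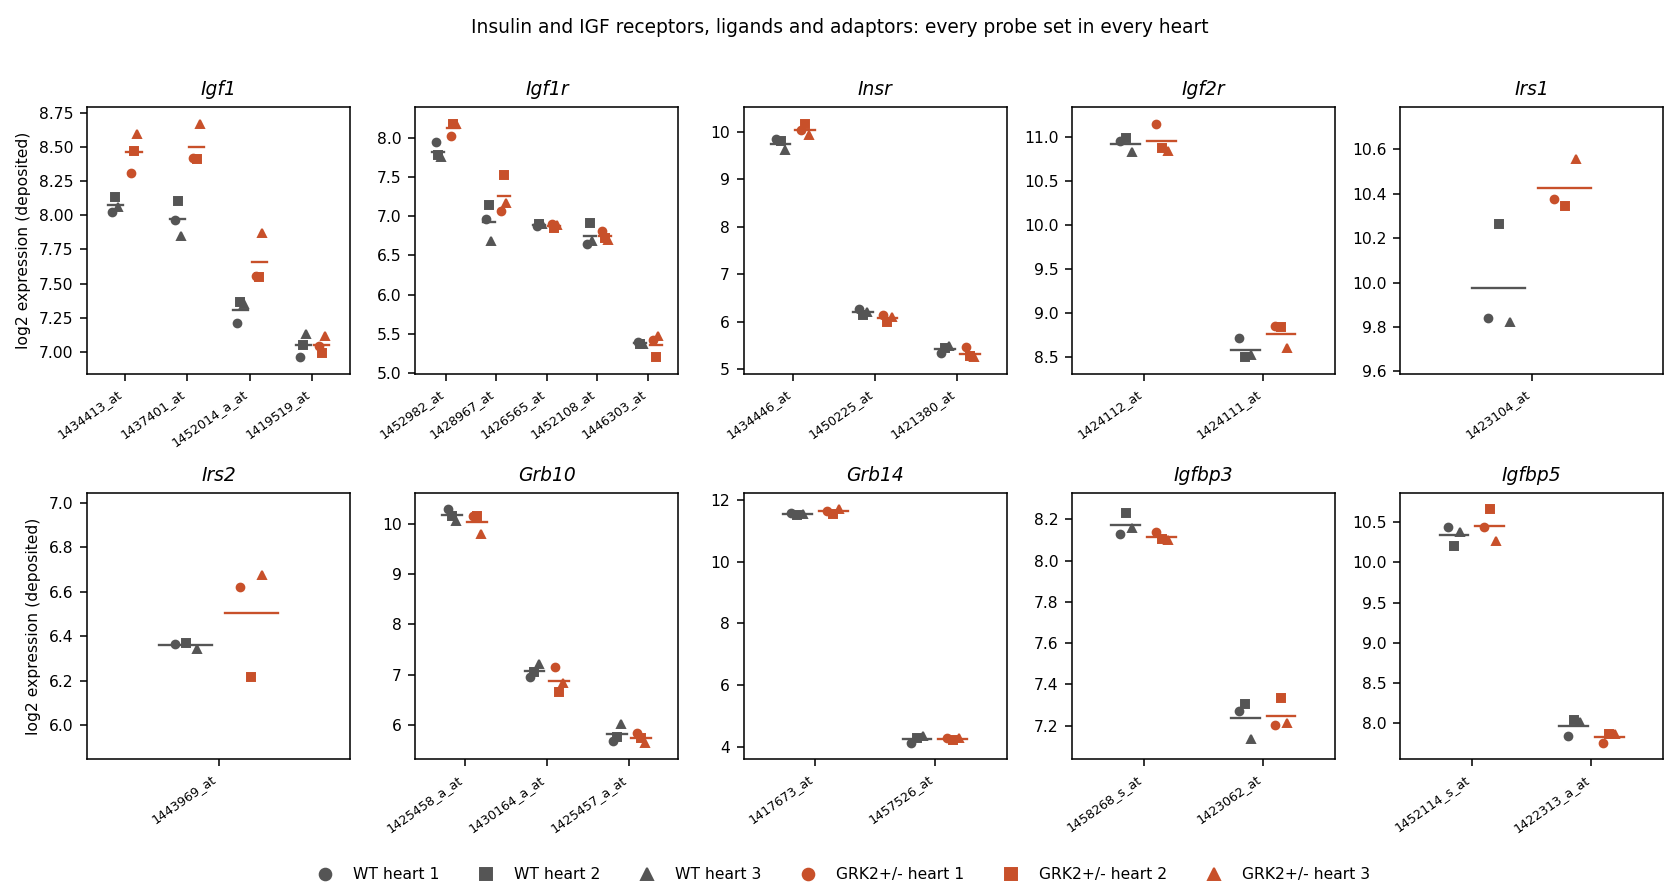
Deposited log2 expression (y axis) of every probe set (x axis) of the 10 genes, with wild-type hearts in grey and GRK2+/- hearts in orange, 1 point per heart (circle, heart 1; square, heart 2; triangle, heart 3) and a line at each mean; the y axis does not start at 0 and its span differs between panels. Groups stand apart for 3 of 4 Igf1 probe sets, for the brightest Igf1r and Insr probe sets and for Irs1, all higher in GRK2+/- hearts, and for Insr 1450225_at, lower in GRK2+/- hearts.

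Igf1 encodes IGF-1, the ligand of Igf1r. On 3 of its 4 probe sets it was higher in every GRK2+/- heart than in any wild-type heart, by 1.27 to 1.44-fold, and on the fourth probe set the groups had the same mean. Probe set 1434413_at, the brightest of the 4, read 8.31, 8.47 and 8.60 in GRK2+/- hearts 1, 2 and 3 and 8.03, 8.14 and 8.06 in the wild-type hearts. The groups did not overlap, and GRK2+/- heart 3 was the highest of the 6. The difference was 0.39 ± 0.09 (SE, n = 3 per group; 95% interval 0.20 to 0.58; limma adjusted p = 0.177).

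Probe set 1437401_at of Igf1 read 8.42, 8.41 and 8.67 in GRK2+/- hearts and 7.97, 8.11 and 7.85 in wild-type hearts. It had the smallest p of all 25 probe sets, rank 86 among the 45037, with a difference of 0.53 ± 0.10 (95% interval 0.31 to 0.74; limma adjusted p = 0.143). Probe set 1452014_a_at read 7.56, 7.55 and 7.87 against 7.21, 7.36 and 7.35, a difference of 0.35 ± 0.10 (limma adjusted p = 0.226). On both of these GRK2+/- heart 3 stood above the other two, and without it the differences were 0.44 and 0.24, the lowest of the values obtained by leaving out 1 heart at a time.

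The fourth probe set of Igf1, 1419519_at, read 7.04, 6.99 and 7.12 in GRK2+/- hearts and 6.96, 7.05 and 7.13 in wild-type hearts. The groups overlapped fully, and the difference was 0.0012 with a 95% interval of -0.17 to 0.17, which does not hold the differences read by the other 3. Within each heart, 1434413_at minus 1419519_at was 1.27, 1.48 and 1.48 in GRK2+/- and 1.06, 1.08 and 0.93 in wild-type hearts, so the gap between these 2 probe sets was wider in every GRK2+/- heart (exact permutation p = 0.1, the smallest possible). Which transcripts each probe set reads was not examined. The mean of the 4 probe sets gave a difference of 0.32.

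Igf1r, the receptor tyrosine kinase for IGF-1, was higher in GRK2+/- hearts on the brightest 2 of its 5 probe sets at an unadjusted p under 0.05, and the other 3 lay near 0. Probe set 1452982_at read 8.03, 8.18 and 8.19 in GRK2+/- hearts and 7.94, 7.78 and 7.75 in wild-type hearts. The groups did not overlap, though GRK2+/- heart 1 and wild-type heart 1 lay close together. The difference was 0.31 ± 0.08, or 1.24-fold (95% interval 0.12 to 0.49; limma adjusted p = 0.217).

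Probe set 1428967_at of Igf1r read 7.07, 7.53 and 7.17 in GRK2+/- hearts and 6.97, 7.14 and 6.69 in wild-type hearts. Here GRK2+/- heart 1 lay below wild-type heart 2, and the difference of 0.33 ± 0.14 (limma adjusted p = 0.365) was 0.19 without GRK2+/- heart 2. The remaining 3 probe sets of Igf1r, 1426565_at, 1452108_at and 1446303_at, differed by -0.014, -0.0021 and -0.017, all within a standard error of 0, and the sign of each turned after quantile normalisation and after centring. Their 95% intervals ended at 0.13, 0.19 and 0.17. Averaged over its 5 probe sets, weighed equally though 1446303_at stood at percentile 31.8 of mean level, Igf1r differed by 0.12.

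Insr, the insulin receptor, gave differences of opposite sign on its probe sets, and the 95% intervals of its dimmer probe sets held 0. Probe set 1434446_at, the brightest of its 3, read 10.03, 10.17 and 9.93 in GRK2+/- hearts and 9.85, 9.80 and 9.61 in wild-type hearts. All GRK2+/- hearts lay above all wild-type hearts, with a difference of 0.29 ± 0.09, or 1.22-fold (95% interval 0.09 to 0.49; limma adjusted p = 0.255).

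Probe set 1450225_at of Insr read 6.14, 5.99 and 6.10 in GRK2+/- hearts and 6.27, 6.15 and 6.20 in wild-type hearts. It was the 1 probe set among the 25 whose GRK2+/- values all lay below the wild-type values. The difference was -0.13 ± 0.07 (95% interval -0.29 to 0.031, limma adjusted p = 0.477). The nearest GRK2+/- and wild-type hearts lay only 0.015 apart. Probe set 1421380_at differed by -0.10 ± 0.08 with overlapping groups, and by -0.16 without GRK2+/- heart 1 and -0.059 without GRK2+/- heart 3. The gap between 1434446_at and either of the dimmer probe sets was wider in every GRK2+/- heart than in any wild-type heart, by 0.42 and 0.39 on average (exact permutation p = 0.1 for each, the smallest possible). Averaged over the 3 probe sets Insr differed by 0.021, so its direction rests on which probe set is read. By mean level among all probe sets, 1434446_at stood at percentile 91.9, 1450225_at at 47.6 and 1421380_at at 31.9. The average weighs the 3 equally.

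Igf2r, the non-signalling receptor for IGF-2, did not separate the genotypes. Its brighter probe set 1424112_at read 11.16, 10.88 and 10.85 in GRK2+/- hearts and 10.96, 10.99 and 10.83 in wild-type hearts, with GRK2+/- heart 1 alone above the wild-type range. The difference was 0.03 ± 0.09 (95% interval -0.18 to 0.24) and was -0.063 without that heart. Probe set 1424111_at read 8.85, 8.84 and 8.60 against 8.71, 8.50 and 8.53, a difference of 0.18 ± 0.09 (limma adjusted p = 0.433) in which GRK2+/- heart 3 lay inside the wild-type range.

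**Figure D2:**
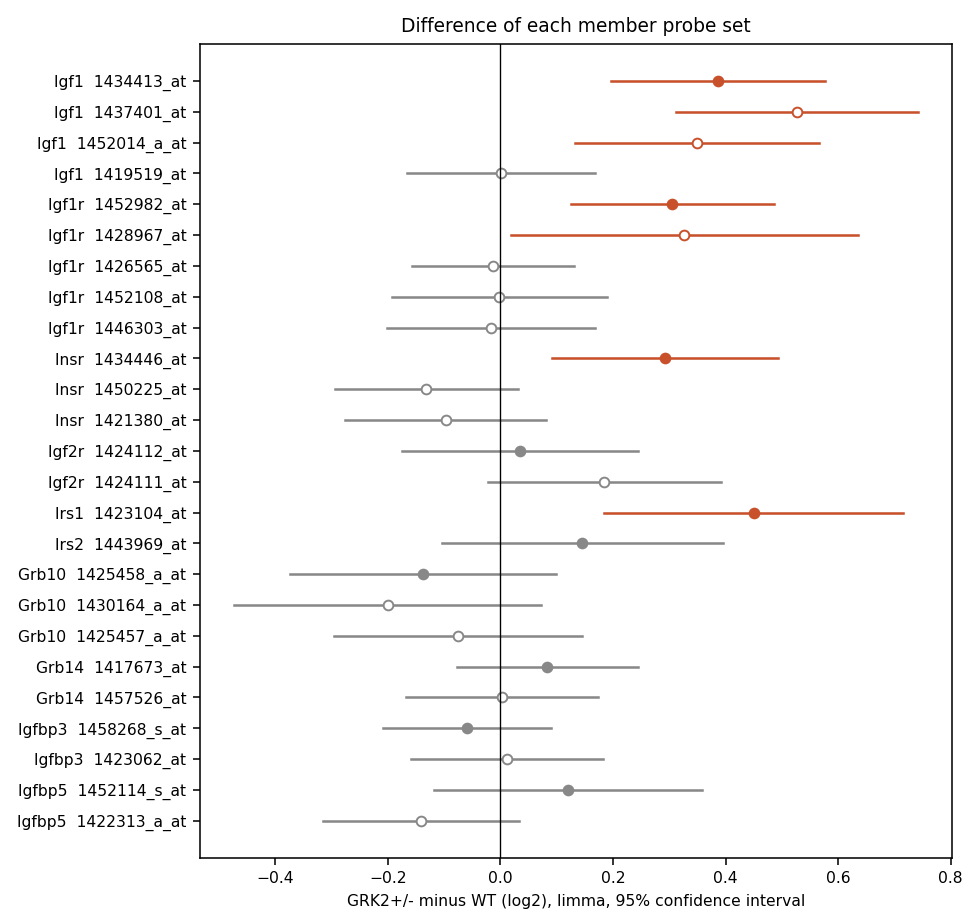
Log2 difference, GRK2+/- minus wild type (x axis), for each of the 25 probe sets (y axis), with the 95% confidence interval from limma; filled points are the brightest probe set of each gene, and orange marks an unadjusted p under 0.05. The 7 orange probe sets all lie to the right of 0 and belong to Igf1, Igf1r, Insr and Irs1, and the dimmer Insr probe sets lie to the left.

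Irs1, the docking protein that links the activated receptors to PI3-kinase, was measured by 1 probe set, 1423104_at, and was higher in GRK2+/- hearts. It read 10.38, 10.34 and 10.56 in GRK2+/- hearts and 9.84, 10.26 and 9.82 in wild-type hearts. The groups did not overlap, but wild-type heart 2 lay only 0.08 below the nearest GRK2+/- heart while the other two wild-type hearts agreed closely. The difference was 0.45 ± 0.12, or 1.37-fold (95% interval 0.18 to 0.72; limma adjusted p = 0.217), and without wild-type heart 2 it was 0.59.

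Irs2, the second docking protein, was also read by 1 probe set, 1443969_at. The wild-type hearts were nearly identical at 6.37, 6.37 and 6.34, whereas the GRK2+/- hearts were at 6.62, 6.22 and 6.67, hearts 1 and 3 above and heart 2 below all wild-type hearts. The difference was 0.15 ± 0.11 (95% interval -0.10 to 0.39; limma adjusted p = 0.615), 0.29 without GRK2+/- heart 2 and 0.060 without GRK2+/- heart 3. Whether Irs1 and Irs2 differed from each other in response was not tested.

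Both Irs genes are known to be controlled at transcription by insulin and nutrient signals, so the sequence before their start sites is shown. Each line gives the 250 bases before the start site in RefSeq (GRCm38.p6, minus strand), at chr1:82291440-82291689 for Irs1 and chr8:11008930-11009179 for Irs2, read 5′ to 3′ with matches in capitals, an E-box (CACGTG) and the insulin response element motif CAAAACAA, here on the other strand as TTGTTTTG:
Irs1: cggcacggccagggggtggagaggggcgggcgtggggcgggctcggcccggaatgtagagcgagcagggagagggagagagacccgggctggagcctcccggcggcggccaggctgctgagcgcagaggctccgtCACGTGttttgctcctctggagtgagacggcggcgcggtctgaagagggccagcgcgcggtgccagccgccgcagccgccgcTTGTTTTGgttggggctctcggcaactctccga
Irs2: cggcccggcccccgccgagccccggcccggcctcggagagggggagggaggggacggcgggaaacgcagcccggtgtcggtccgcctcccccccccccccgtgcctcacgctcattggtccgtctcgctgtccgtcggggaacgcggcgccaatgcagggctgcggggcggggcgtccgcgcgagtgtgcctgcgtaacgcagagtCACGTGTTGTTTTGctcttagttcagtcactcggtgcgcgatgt
In Irs2 the 2 motifs adjoin, with the E-box 44 to 39 bases and the insulin response motif 38 to 31 bases before the start. In Irs1 they lie apart, at 115 to 110 and 33 to 26 bases before the start.

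Of 32851 windows of the same length in the table, 6.02% held CACGTG and 2.21% held CAAAACAA on either strand. Windows were found for 9 of the 10 genes (10 windows), and CAAAACAA was in those of 2 genes, Irs1 and Irs2, and CACGTG in those of 3, these and Igf2r. The string searched as a FOXO motif, GTAAACA, was in 0 of the 9 genes' windows (3.17% of all). That count covers this string alone and not every site of FOXO factors. The EGR motif GCGGGGGCG was in the windows of 2 genes, Grb14 and Igf2r (2.57% of all). The windows of Igf1 and Igf1r held none of these 4 strings. A match is a string of letters and no evidence of binding.

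Grb10, an imprinted adaptor that binds the activated insulin and IGF-1 receptors and restrains them, was lower on average in GRK2+/- hearts on each of its 3 probe sets, with overlap on all of them. Probe set 1425458_a_at read 10.15, 10.15 and 9.81 in GRK2+/- hearts and 10.30, 10.17 and 10.07 in wild-type hearts. GRK2+/- heart 3 made most of the difference of -0.14 ± 0.11 (limma adjusted p = 0.616), which was -0.022 without it. Probe set 1430164_a_at differed by -0.20 ± 0.12 and read 7.14, 6.65 and 6.83 against 6.94, 7.06 and 7.22, with GRK2+/- hearts 2 and 3 low. That difference was -0.34 without GRK2+/- heart 1, where it had an unadjusted p under 0.05, -0.13 without wild-type heart 3 and -0.089 without GRK2+/- heart 2. The dimmest, 1425457_a_at, differed by -0.08 ± 0.10, and by 0.027 without wild-type heart 3.

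Grb14, the other adaptor of this family and an inhibitor of the insulin receptor kinase, overlapped between the genotypes. Probe set 1417673_at read 11.64, 11.54 and 11.70 in GRK2+/- hearts and 11.59, 11.50 and 11.54 in wild-type hearts, a difference of 0.08 ± 0.07 (95% interval -0.08 to 0.24) that was 0.047 without GRK2+/- heart 3 and 0.13 without GRK2+/- heart 2. Probe set 1457526_at stood at percentile 7.10, close to the bottom of the scale, where values (4.14 to 4.35 here) carry little signal over background.

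Igfbp3, the main carrier of IGFs in blood, showed no separation on either probe set. Probe set 1458268_s_at, whose suffix marks probes that can match more than 1 transcript, read 8.14, 8.10 and 8.10 in GRK2+/- hearts and 8.13, 8.23 and 8.16 in wild-type hearts, a difference of -0.06 ± 0.07 (95% interval -0.21 to 0.09), or -0.032 without wild-type heart 2. Probe set 1423062_at differed by 0.01 ± 0.08 (95% interval -0.16 to 0.18).

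Igfbp5, a binding protein kept in the extracellular matrix, gave opposite signs on its probe sets. Probe set 1452114_s_at read 10.44, 10.67 and 10.27 in GRK2+/- hearts and 10.44, 10.20 and 10.38 in wild-type hearts, a difference of 0.12 ± 0.11 that was 0.017 without GRK2+/- heart 2 and 0.22 without GRK2+/- heart 3. Probe set 1422313_a_at read 7.75, 7.86 and 7.86 against 7.84, 8.03 and 8.01, a difference of -0.14 ± 0.08 (limma adjusted p = 0.477) with 2 GRK2+/- hearts just above the lowest wild-type heart. The mean of both probe sets differed by -0.010.

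**Figure D3:**
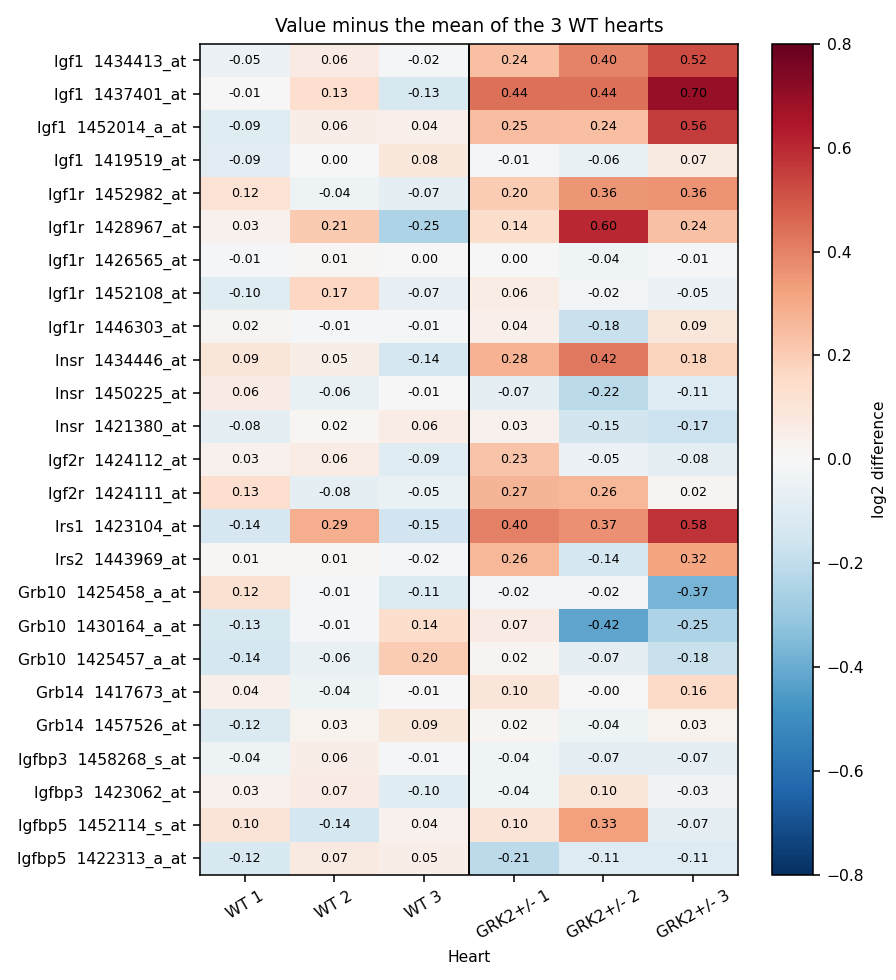
Log2 value of each probe set (y axis) in each heart (x axis) minus the mean of the 3 wild-type hearts, printed in each cell and coloured from blue (lower) to red (higher). Rows of Igf1 other than 1419519_at, Igf1r 1452982_at, Insr 1434446_at and Irs1 are red in all 3 GRK2+/- hearts, with the highest Igf1 and Irs1 values in heart 3 and the highest Insr value in heart 2.

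The 4 genes on the higher side did not share 1 order of the hearts. GRK2+/- heart 3 stood highest for Igf1 (0.52 above the wild-type mean on 1434413_at) and Irs1 (0.58). GRK2+/- heart 2 stood highest for Insr (0.42), and for Igf1r (1452982_at) hearts 2 and 3 were level at 0.36 each. GRK2+/- heart 1 was the lowest of its group on these Igf1 (0.24) and Igf1r (0.20) probe sets and not for Irs1 or Insr.

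As a description over the 6 hearts, the genes whose pattern was most like that of Igf1 were Asxl1 (Pearson r = 0.994) and Ahr (0.985), among 9096 genes at or above the median level. Smarca5 (0.996) and Epb41l1 (0.994) were most like Igf1r, Myadm (0.998) and Mga (0.996) most like Insr, and Smad3 (0.997) and Mllt10 (0.982) most like Irs1. With 6 points such values are common: r was above 0.9 for 236 genes with Igf1, 516 with Igf1r, 292 with Insr and 80 with Irs1. For Igf2r they were Atp2a1 and Cdkn2aipnl (0.986 and 0.981), for Irs2 Cyth1 and Gdap10 (0.986 and 0.979), for Grb10 Nrap and Mybpc3 (0.983 and 0.977), for Grb14 Mnt and Rnf207 (0.995 and 0.986), and for Igfbp5 Atp11a and Rnf19a (0.986 and 0.978). Those of Igfbp3 were clone names.

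Other genes that act at or near these receptors were read from a list of 73 genes, of which 67 were measured. Of these, 0 passed an adjusted p of 0.05 (limma over 18193 genes, of which 0% passed). At an unadjusted p under 0.05 there were 8 higher (11.9%, against 6.3% of all genes), 6 lower (8.96%, against 7.7%) and 53 that did not pass. The median difference of the 67 genes was -0.014, against -0.019 over all genes. With equal array medians the split was 9 higher and 4 lower, against 8.5% and 4.89% of all genes. Over all 18193 genes, 2546 had such a p. The list's count of 14 (20.9%, against 14% of all genes) dropped to 7 without GRK2+/- heart 3, where the count over all genes was 2109. It was 9 without wild-type heart 1 (3031 of all genes) and 9 without wild-type heart 3 (1614 of all genes). Averaging the probe sets of each gene gave 7 in the list and 2393 over all genes. As a share, the list lay below all genes without GRK2+/- heart 3, without wild-type heart 1 and after averaging. It lay above all genes without wild-type heart 3. The excess of the list thus did not hold in every setting.

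Among IGF carriers and their proteases, 2 of 13 genes (15.4%) had an unadjusted p under 0.05, a share near the 14% of all genes, and both were on the higher side (6.3% of all genes). Igfbp4, a binding protein that blocks IGF action until it is cleaved, had the smallest p of the 67. It read 11.00, 11.10 and 11.12 in GRK2+/- hearts and 10.78, 10.70 and 10.65 in wild-type hearts. All GRK2+/- hearts lay well above all wild-type hearts, with a difference of 0.36 ± 0.07 (limma adjusted p = 0.114) and 5 of its 6 probe sets in that direction. The adjusted p ranged from 0.0421 to 0.395 over the alternatives, and the 1 below the threshold came from a prior that followed the mean level. The mean of its probe sets gave 0.21.

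Among docking proteins and adaptors, 5 of 21 genes (23.8%) had such a p, against 14% of all genes, and all 5 were on the higher side (6.3% of all genes, or 8.5% with equal array medians). The 4 with the smallest p were the docking protein Gab2 (0.33 ± 0.10), the Ras exchange factor Sos1 (0.24 ± 0.07), the ubiquitin ligase Cblb (0.36 ± 0.13) and the adaptor Nck2 (0.21 ± 0.08), with limma adjusted p of 0.219, 0.232, 0.276 and 0.294. The values of Cblb were 8.01, 8.18 and 8.43 in GRK2+/- hearts and 7.98, 7.58 and 7.97 in wild-type hearts, with GRK2+/- heart 1 just above the wild-type range and wild-type heart 2 the lowest of the 6. The Cblb difference was 0.23 without wild-type heart 2 and 0.25 without GRK2+/- heart 3, and without either it no longer had an unadjusted p under 0.05. These rested on the brightest probe set: averaged over all probe sets of the gene, the differences were -0.0046 for Gab2, 0.060 for Sos1, 0.12 for Cblb and 0.076 for Nck2. With the most variable probe set Sos1 differed by 0.14.

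Of 16 genes listed as brakes or modifiers of receptor signalling, 3 (18.8%) had such a p, against 14% of all genes. All 3 were on the lower side (7.7% of all genes, or 4.89% with equal array medians). They were the pseudokinase Trib3 (-0.21 ± 0.07), the secreted glycoprotein Ahsg (-0.23 ± 0.08) and the tyrosine phosphatase Ptpn11 (-0.17 ± 0.07), with limma adjusted p of 0.265, 0.276 and 0.314. Ptpn11 read 11.29, 11.34 and 11.24 in GRK2+/- hearts and 11.46, 11.42 and 11.49 in wild-type hearts, without overlap, and differed by -0.043 with the mean of its probe sets and -0.026 with the most variable one. Trib3 differed by -0.13 with the mean of its probe sets. Ahsg is known as a liver gene.

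Of 9 genes of PI3-kinase, the lipid phosphatases that oppose it and the downstream kinase Pdpk1, 1 was higher (11.1%, against 6.3% of all genes) and 3 lower (33.3%, against 7.7%) at an unadjusted p under 0.05. Pik3r1, the main regulatory subunit of PI3-kinase, which binds phosphorylated Irs1, read 10.68, 10.37 and 10.33 in GRK2+/- hearts and 11.07, 10.58 and 10.98 in wild-type hearts. The groups overlapped through GRK2+/- heart 1 and wild-type heart 2, and the difference was -0.42 ± 0.14 (limma adjusted p = 0.244) with all 4 probe sets in that direction and -0.43 as their mean, or -0.66 on the most variable one. Wild-type heart 2 was the highest of its group for Irs1 and the lowest for Pik3r1. Pik3cd, the catalytic subunit of white blood cells, differed by -0.25 ± 0.08 (limma adjusted p = 0.243; -0.13 as the mean of its 6 probe sets). All 6 probe sets of Pik3cd lay in that direction. The difference was -0.020 on the most variable of them, so its size rested on the probe set read.

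**Figure D4:**
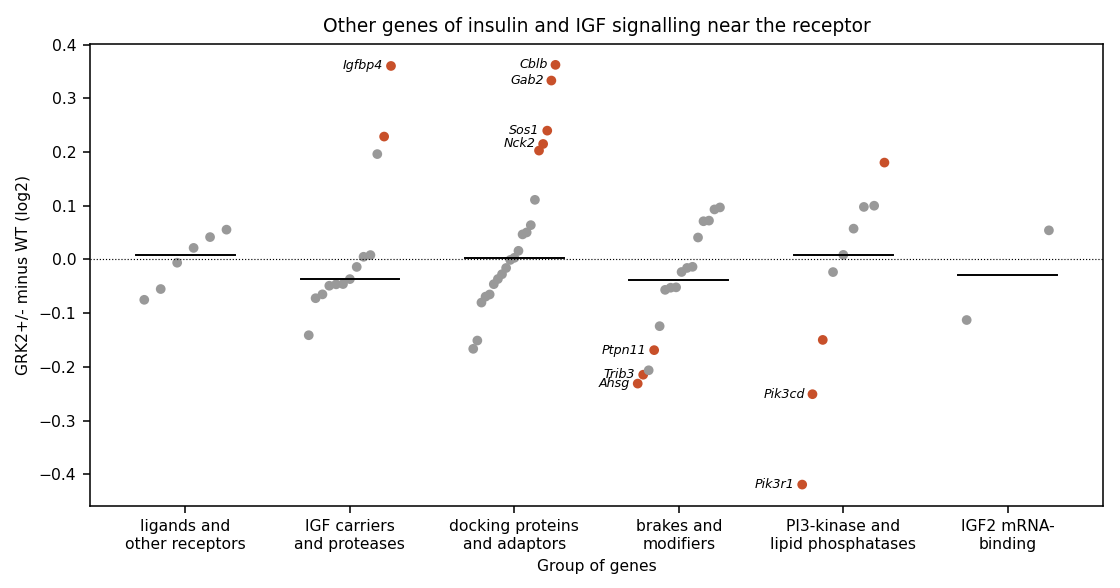
Log2 difference, GRK2+/- minus wild type (y axis), for the 67 other genes of insulin and IGF signalling, 1 point per gene, in 6 groups by role (x axis), with a bar at each group's median; orange marks an unadjusted p under 0.05. The 5 orange docking and adaptor genes lie above 0 and the 3 orange brakes and modifiers lie below. Genes are grouped as they were listed, with the ubiquitin ligase Cblb among the docking and adaptor genes and the phosphatase Ptpn11 among the brakes and modifiers.

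The ligand Igf2 and the insulin gene Ins2 gave no such p, nor did the other genes of the ligand and receptor group (0 of 6), and the same held for the 2 measured IGF2 mRNA-binding genes. Igf2 differed by 0.04 ± 0.12 and Ins2 by 0.06 ± 0.07. The phosphatase Ptpn1, which dephosphorylates the insulin receptor, differed by -0.06 ± 0.07, and Socs3, an induced inhibitor of Irs proteins, by -0.21 ± 0.21.

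Because the tissue was bulk, fewer cells of a type and less RNA per cell cannot be told apart in any of these values. Markers of cells that express these genes moved with the groups to different degrees. Macrophage markers (10 genes under 12 listed names, 6 above 0) had a summed linear brightness of 7313 to 7853 in wild-type and 7500 to 8162 in GRK2+/- hearts. That of fibroblast markers (10 of 10, 7 above 0) was 16639 to 18365 and 17366 to 17876, and both sums overlapped. Endothelial markers (10 of 10, 7 above 0) summed to 6881 to 7736 and 7678 to 8215, with a small overlap. Their mean log2 values did not overlap, at 9.38, 9.42 and 9.24 in wild-type and 9.43, 9.56 and 9.49 in GRK2+/- hearts. Of the 10, 3 were higher at an unadjusted p under 0.05 (6.3% of all genes), with Kdr and Cldn5 each at 0.55. On the other side of 0, Pecam1, Esam and Eng differed by -0.12, -0.15 and -0.043.

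Smooth muscle and pericyte markers (10 of 10, 8 above 0) summed to 21481 to 23583 in wild-type and 24470 to 26605 in GRK2+/- hearts, epicardial markers (7 of 7, all above 0) to 489 to 525 and 562 to 575, and neutrophil markers (7 of 9, 4 above 0) to 646 to 759 and 1206 to 2540, each without overlap. The neutrophil sum was carried by S100a8 (1.97) and S100a9 (2.25), whereas Csf3r and Mmp9 differed by 0.33 and 0.27 and the granule genes Camp, Ltf and Ngp by -0.040, -0.038 and -0.088. Cardiomyocyte markers (10 of 10, 4 above 0; 226077 to 231410 and 227298 to 231958) and adipocyte markers (6 of 8, 3 above 0; 13762 to 14854 and 14586 to 15509) overlapped. Among the cardiomyocyte markers, Nppa, which is most abundant in atria, differed by -1.20 ± 0.27, and Ryr2 by 0.35 ± 0.08 in the other direction. The part of these shifts in the differences of Igf1, Igf1r, Insr and Irs1 was not tested.

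The 3′ minus 5′ gap of the beta-actin control probe sets, which depends on how intact the RNA was, averaged 0.98 ± 0.08 over the GRK2+/- hearts and 0.78 ± 0.04 over the wild-type ones (SD, 3 hearts each), and that of Gapdh 0.030 ± 0.016 and 0.0051 ± 0.039. The beta-actin gaps were 0.90, 1.06 and 0.97 in GRK2+/- hearts and 0.80, 0.80 and 0.73 in wild-type hearts, without overlap. Those of Gapdh overlapped. The part of RNA intactness in the disagreement between probe sets of Igf1, Igf1r and Insr was not tested.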

How the data were processed

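Per the labels, RNA of 6 hearts was hybridised to Affymetrix arrays, and the deposited values are log2 probe-set summaries. The submitters' processing notes name RMA and limma (versions and genome build not given in the sources used here). The 64 control probe sets of 45101 were left out. Symbols came from the platform annotation, updated through Entrez identifiers to RefSeq (GRCm38.p6): 34945 probe sets had 1 symbol and 932 listed ones several, which were not named. GRK2+/- minus wild type was tested with limma 3.58.1 in R 4.3.3 (lmFit, eBayes, two-sided, Benjamini-Hochberg over all probe sets or genes, threshold 0.05); errors are limma's SE. The fit was tested on simulated data. For genes, the probe set with the highest mean was kept. Alternatives were 2 scalings, 2 filters on dim probe sets, 2 priors, array weights, a replicate block, leaving out each heart, and 2 other choices of a gene's probe set. The genes and lists were chosen with earlier results of these data known. Named were all probe sets of the 10 genes, the 5 list genes of smallest p in each direction, and the 2 genes most correlated with each of the 10; other genes named were chosen after their values were seen. The number of arrays limits the precision.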

Additional observations from a re-analysis of the deposited data

How the results depend on the processing

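At an unadjusted p under 0.05 there were 6 to 8 member probe sets in every alternative run, and 0 passed an adjusted p of 0.05 in any. The count was 6 without wild-type heart 3, where 3772 of all 45037 probe sets had such a p. It was 8 without wild-type heart 1, where 6862 of all had such a p. All 25 were tested except under the 2 filters on dim probe sets, which left out dim members. The sign of 17 of the 25 held in every run that tested them, and this includes the 7 on the higher side. The other 8 all lay near 0. After quantile normalisation Igf1r 1426565_at, 1452108_at and 1446303_at were at 0.0060, 0.017 and 0.020, and after centring each array at 0.015, 0.027 and 0.012. Grb14 1457526_at was -0.0019 with array weights. Leaving out 1 heart at a time gave ranges of -0.043 to 0.043 for Igf1 1419519_at, -0.052 to 0.081 for Igf1r 1452108_at, -0.070 to 0.065 for Igf1r 1446303_at, -0.063 to 0.091 for Igf2r 1424112_at, -0.148 to 0.027 for Grb10 1425457_a_at, -0.057 to 0.047 for Grb14 1457526_at and -0.038 to 0.046 for Igfbp3 1423062_at. Averaging a gene's probe sets gave -0.010 for Igfbp5 and -0.0046 for Gab2, and the most variable probe set gave 0.012 for Igfbp3.

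Over the whole table, the count past the adjusted threshold was 22 probe sets and 42 genes with limma's trended prior (Igfbp4 among them, 1 gene of the list of 67), 12 genes with the most variable probe set, and 0 to 41 probe sets and 0 to 56 genes when 1 heart was left out, the highest without GRK2+/- heart 1. The unadjusted count was 3547 probe sets among those at or above the median level, where fewer were tested, and 3772 to 6862 probe sets and 1614 to 3031 genes with 1 heart left out, lowest without wild-type heart 3. The median of the list of 67 was 0.015 after centring and -0.00098 at or above the median level. Its unadjusted count was 7 after averaging the probe sets of each gene, where the count over all genes was 2393, a larger share than that of the list. With 1 heart left out the median ranged from -0.020 to 0.0065 and the count from 7 to 12. The cause of these shifts was not tested.

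The replicate numbers did not pair the hearts: same-numbered hearts correlated at -0.14, -0.020 and 0.0095 in their deviations, and no GRK2+/- heart correlated best with its own number. With the replicate block, 1 gene and 0 probe sets passed. An unadjusted p under 0.05 was then found for 7 of the 25 probe sets and for 5261 of all probe sets.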
